A study of Solanum lycopersicum with 4 samples.

Results

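Cinnamate 4-hydroxylase (C4H) and 4-coumarate:CoA ligase (4CL) were followed in tomato fruit through 4 genes, taken by their IDs from the 34675 genes of the deposited table. They comprised 1 C4H gene, Solyc05g047530.2, and 3 4CL genes, Solyc03g117870.2, Solyc06g068650.2 and Solyc12g042460.1. Each ID matched 1 row. The enzyme names came with the list of IDs, since the table itself gives these rows no name. By the digits after "Solyc" in their IDs, the genes lie on chromosomes 5, 3, 6 and 12. Coordinates and gene structures were not analysed here.

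RNA sequencing was done on fruit of the cultivar Ailsa Craig, with 2 libraries from transgenic plants and 2 from wild-type plants. The transgenic plants express CsMYBF1, a MYB transcription factor gene taken from citrus, and came as line D7 (replicate 1) and line C2 (replicate 2), so that each line is 1 library. No treatment was given in either group. The sources used here do not give the promoter of the transgene, the ripening stage of the fruit or the number of plants behind a library. Because no separate plants or cultures are stated, p-values measure the spread between these samples, which may be technical in wild type and includes the difference between lines in the transgenic group. The citrus transcript has no row among the tomato IDs and was not measured here. The fruit label was not checked against marker genes, because the table names only 1 gene, Slchs, described below.

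The general phenylpropanoid pathway carries carbon from phenylalanine to activated phenolic acids. Phenylalanine ammonia-lyase first makes cinnamic acid. C4H, a cytochrome P450 of the endoplasmic reticulum, then hydroxylates it to p-coumaric acid, and 4CL joins p-coumaric acid to coenzyme A. The product, p-coumaroyl-CoA, is the branch point from which chalcone synthase leads to flavonoids and other enzymes lead to chlorogenic acid and lignin precursors. 4CL is usually encoded by several genes, whose members in many plants differ in tissue and in the branch they serve.

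C4H and 4CL Solyc03g117870.2 stood higher in both CsMYBF1 lines than in both wild-type libraries, and both were higher in line C2 than in line D7. Over all genes tested, 50.7% stood higher in both lines in this way, and 26.6% had the order line C2, line D7, wild type. The gap between the lower line and the higher wild-type library was 3.66-fold for C4H and 2.06-fold for the 4CL gene as deposited, and 2.08-fold and 1.28-fold with median-of-ratios scaling. The means differed by 13.6-fold for C4H and by 4.26-fold for 4CL Solyc03g117870.2. The values tested were log2 fold changes of 2.24 and 1.88, on a scale that compresses low values. Neither passed at an adjusted p of 0.05. The other 4CL genes stayed below 2 RPKM in every library, where RPKM are reads per kilobase of gene, scaled to library size. Of these, Solyc12g042460.1 also stood higher in both lines as deposited, by 1.16-fold, but not with median-of-ratios scaling. Levels compared between genes below are RPKM and thus per length. In bulk fruit, fewer cells with a transcript and less transcript per cell cannot be told apart.

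**Figure D1:**
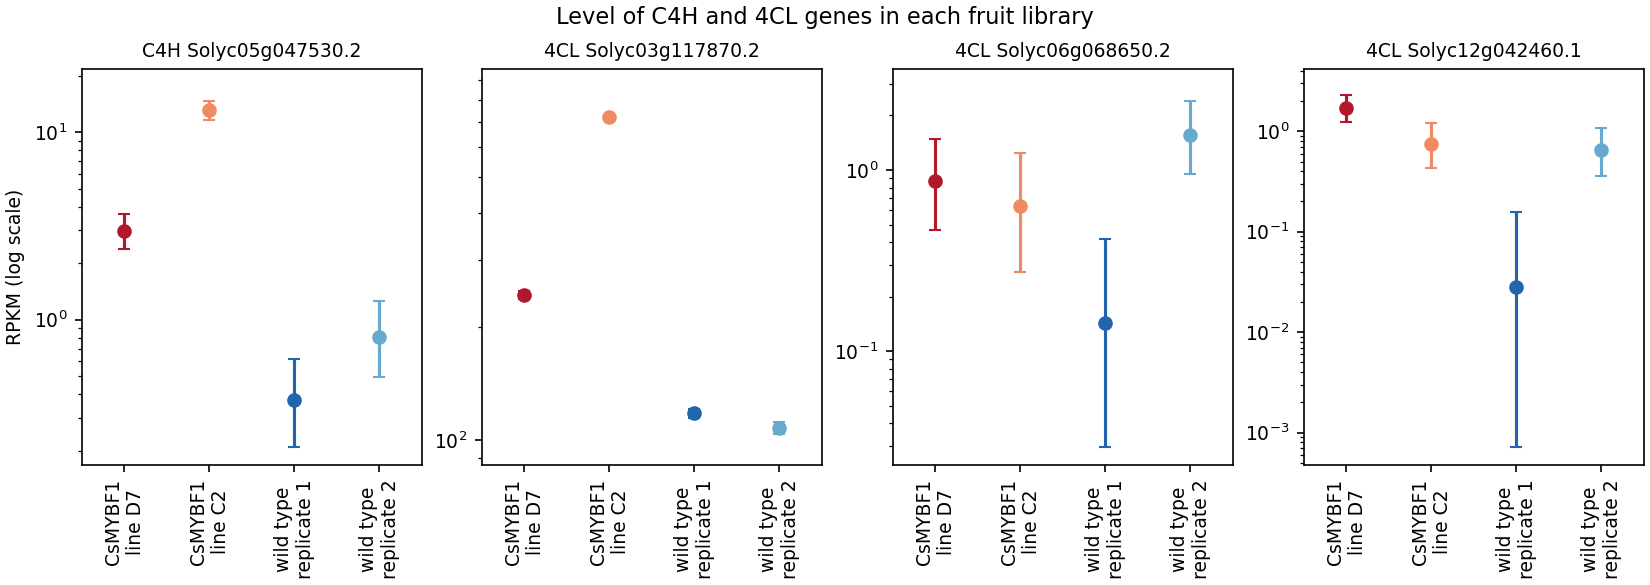
RPKM (log axis, a separate range in each panel) of the C4H gene and the 3 4CL genes in the CsMYBF1 lines D7 and C2 and in wild-type replicates 1 and 2. Points are single libraries and bars are exact 95% counting intervals from the recovered reads, hidden behind the points where narrow. The recovered reads are lower limits, for 4CL Solyc06g068650.2 as for the other genes, so the bars may be too wide. C4H and 4CL Solyc03g117870.2 stand higher in both lines than in both wild-type libraries, as do 50.7% of the genes tested, with line C2 the highest. 4CL Solyc12g042460.1, which was not tested, also does so, by 1.16-fold, with line D7 the highest. For 4CL Solyc06g068650.2 the lines lie between the wild-type libraries.

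C4H was a low transcript in wild-type fruit. Solyc05g047530.2 stood at 2.96 RPKM in the D7 line and 13.1 RPKM in the C2 line, against 0.372 RPKM in wild-type replicate 1 and 0.810 RPKM in wild-type replicate 2. Both lines lay above both wild-type libraries, as for 50.7% of the genes tested, and the lower line was 3.66-fold above the higher wild-type library. The mean was 8.02 ± 7.15 RPKM in CsMYBF1 fruit and 0.591 ± 0.310 RPKM in wild-type fruit (SD, n = 2 each). Of the read genes of each library, 64.1% stood above C4H in the D7 line and 40.9% in the C2 line, against 82.2% and 74.9% in the wild-type replicates.

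The C4H values rested on 85 reads in the D7 line and 318 in the C2 line, against 15 and 20 reads in the wild-type replicates, as recovered from the steps between low RPKM values. The 95% counting intervals were 2.37 to 3.66 RPKM in the D7 line and 11.7 to 14.6 RPKM in the C2 line, against 0.208 to 0.614 and 0.495 to 1.25 RPKM in the wild-type replicates. The intervals of the lines did not touch those of wild type, but for how many other genes this holds was not counted. The intervals hold for counting error alone, since reads lacking molecular identifiers can be copies of 1 molecule.

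On the log2(RPKM + 1) scale, C4H had a fold change of 2.24 with a standard error of 0.64 (limma, unadjusted p = 0.0128, adjusted p = 0.0549). Genes were tested if their mean reached 1 RPKM, which 16876 did. Of these, 18.8% were called higher and 2.09% lower at an adjusted p below 0.05, and C4H was not among them. C4H passed the filter on low values through the transgenic libraries, since its wild-type mean was below 1 RPKM. The pseudocount of 1 compresses such low values, so that the ratio of the means was 3.76 on the log2 scale. Fold changes as high as that of C4H or higher were found for 1.51% of the genes tested. Over all genes tested the log2 fold change had 0.49 as its median, and C4H lay 1.75 above it.

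The summed RPKM of the 3 listed 4CL genes came almost wholly from 1 of them. Any further 4CL genes could not be listed here, and reads of related 4CL genes may not have been kept apart. Solyc03g117870.2 held 98.9% of the summed RPKM of the 3 4CL genes in the D7 line and 99.8% in the C2 line, against 99.9% and 98.0% in the wild-type replicates. Its share averaged 99.4% ± 0.61 in CsMYBF1 fruit and 98.9% ± 1.31 in wild-type fruit (SD, n = 2 each), a difference smaller than the spread within a group. The same gene therefore led the 3 in all 4 libraries.

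Solyc03g117870.2 stood at 243 RPKM in the D7 line and 718 RPKM in the C2 line, against 118 RPKM in wild-type replicate 1 and 108 RPKM in wild-type replicate 2. Both lines lay above both wild-type libraries, as for 50.7% of the genes tested, and the lower line was 2.06-fold above the higher wild-type library. The mean was 481 ± 336 RPKM in CsMYBF1 fruit and 113 ± 7.09 RPKM in wild-type fruit (SD, n = 2 each). By level it was gene number 561 in the D7 line and 104 in the C2 line, against 1452 and 1599 in the wild-type replicates. It was thus an abundant transcript in every library, while C4H was not.

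The reads behind these values were 7506 in the D7 line and 18797 in the C2 line, against 5115 and 2865 in the wild-type replicates. Counting intervals were narrow, with 238 to 249 RPKM in the D7 line and 708 to 729 RPKM in the C2 line, against 115 to 121 and 104 to 112 RPKM in the wild-type replicates. Its log2 fold change, 1.88 ± 0.52 (standard error), missed the threshold (limma, unadjusted p = 0.0116, adjusted p = 0.0524). Fold changes at least as high were found for 5.33% of the genes tested, and the gene lay 1.39 above the median of all genes.

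**Figure D2:**
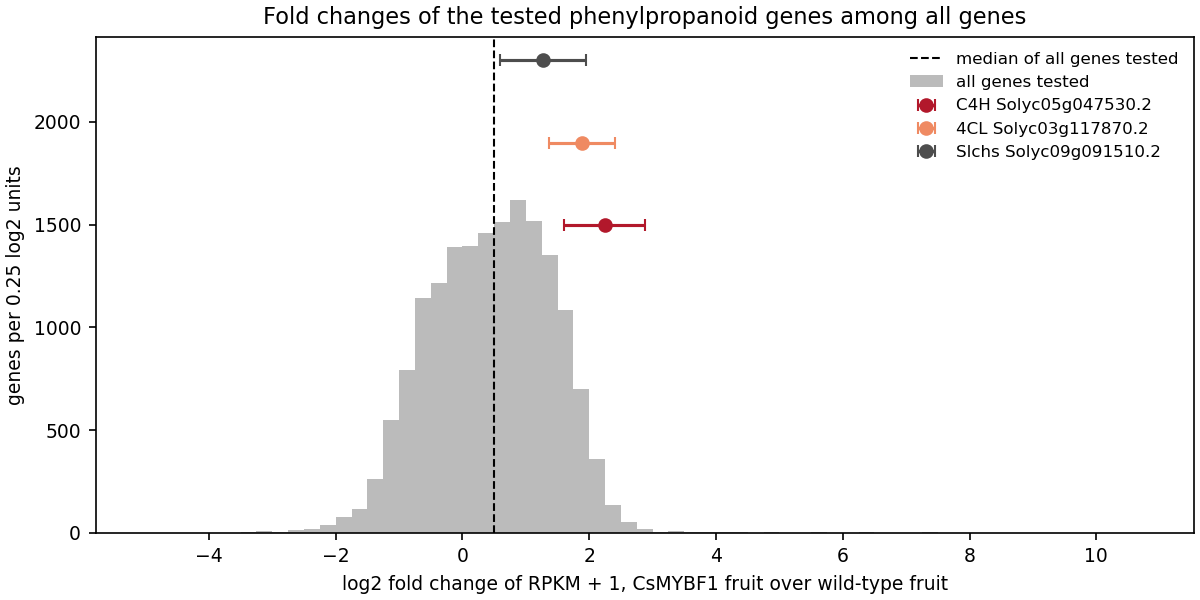
Distribution of log2 fold changes of RPKM + 1 (CsMYBF1 over wild-type fruit) over the 16876 genes tested, in bins of 0.25, with C4H, 4CL Solyc03g117870.2 and Slchs drawn as points with standard errors at arbitrary heights. C4H at 2.24 and the 4CL gene at 1.88 lie in the upper tail, and the dashed median of all genes stands at 0.49 and not at 0.

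The position of both lines above both wild-type libraries was common in this table, at 50.7% of the genes tested, and nothing about C4H or 4CL is read from it. A gap of at least 2-fold between the lower line and the higher wild-type library, which both C4H and Solyc03g117870.2 showed as deposited, was found for 22.3% of the genes tested. With median-of-ratios scaling 8.65% of genes had such a gap, among them C4H but not Solyc03g117870.2. The order line C2, line D7, wild type was found for 26.6%. In an exact permutation test, 2 libraries against 2 cannot give a two-sided p below 0.333, and C4H, Solyc03g117870.2 and Solyc12g042460.1 each had that value.

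Gene length moved with the comparison, and both values were smaller once it was corrected for. The smallest lengths that gave whole reads were 1884 bases for C4H and 2026 bases for Solyc03g117870.2. Among the 1883 genes within 10% of the C4H length the median log2 fold change was 0.90, against 0.49 for all genes, and 1.22% of them were at least as high as C4H. Among the 1689 genes within 10% of the length of Solyc03g117870.2 the median was 1.01, and 6.39% were at least as high as that gene. After correction for each library's trend with length, C4H had a log2 fold change of 1.38 (standard error 0.70, limma adjusted p = 0.299) and the 4CL gene one of 0.91 (standard error 0.56, limma adjusted p = 0.38), and 0.107% of all genes were called higher and 0% lower. With median-of-ratios scaling, which brought the median of all genes to -0.05, the values were 1.85 (adjusted p = 0.116) and 1.24 (adjusted p = 0.179) in the limma fit, which called 2.95% of genes higher and 5.49% lower.

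The other 4CL genes were at low levels, and neither reached the mean of 1 RPKM needed to be tested. Solyc06g068650.2 stood at 0.871 RPKM in the D7 line and 0.632 RPKM in the C2 line, against 0.143 RPKM in wild-type replicate 1 and 1.56 RPKM in wild-type replicate 2. Both lines lay between the wild-type libraries, which differed from each other by 10.9-fold. The mean was 0.752 ± 0.169 RPKM in CsMYBF1 fruit and 0.850 ± 1.00 RPKM in wild-type fruit (SD, n = 2 each), and the exact permutation test gave p = 1. The smallest whole-number solution gave 13 and 8 reads in the lines, against 3 and 20 reads in wild type, with a length of 980 bases. Reads and length of this gene are lower limits, as for every gene solved in this way, since any common multiple of both gives the same RPKM.

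Solyc12g042460.1 stood at 1.71 RPKM in the D7 line and 0.752 RPKM in the C2 line, against 0.0284 RPKM in wild-type replicate 1 and 0.649 RPKM in wild-type replicate 2. As deposited the groups did not overlap, with line C2 1.16-fold above wild-type replicate 2. Both lines stood above both wild-type libraries for 50.7% of the genes tested, a set without this gene. Nothing is read from this position. With median-of-ratios scaling the groups overlapped, at 0.624 in line C2 and 0.872 in wild-type replicate 2. The reads were 43 in the D7 line and 16 in the C2 line, against 1 and 14 in the wild-type replicates, so that the counting interval of line C2, 0.430 to 1.22 RPKM, covered the value of wild-type replicate 2. The mean was 1.23 ± 0.681 RPKM in CsMYBF1 fruit and 0.339 ± 0.439 RPKM in wild-type fruit (SD, n = 2 each). Unlike C4H and Solyc03g117870.2, this gene was higher in line D7 than in line C2, by 2.28-fold.

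With every gene above 0 admitted to the fit, both lesser 4CL genes could be tested and neither passed. Solyc06g068650.2 had a log2 fold change of 0.03 (standard error 0.41, limma adjusted p = 0.966) and Solyc12g042460.1 one of 0.74 (standard error 0.34, limma adjusted p = 0.209). In that fit 0.045% of the 24422 genes were called higher and 0% lower, so it called almost nothing. Together these 2 genes summed to 2.59 RPKM in the D7 line and 1.38 RPKM in the C2 line, against 0.171 and 2.21 RPKM in the wild-type replicates. Their sum overlapped between the groups.

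The balance between the listed 4CL and C4H transcripts within a library is free of the scaling of libraries. Any further C4H or 4CL genes could not be listed here and are not part of it. The summed 4CL RPKM was 83.0 times the C4H RPKM in the D7 line and 55.1 times in the C2 line, against 318 and 136 times in the wild-type replicates. Both lines had a lower ratio than both wild-type libraries, but counting error alone left D7 and wild-type replicate 2 unresolved. How often ratios between other genes separate the groups was not counted, so nothing is read from this position. The 95% counting intervals from the C4H reads were 67.1 to 104 in line D7 and 49.3 to 61.7 in line C2, against 193 to 567 and 88.0 to 223 in the wild-type replicates. The ratio averaged 69.0 ± 19.7 in CsMYBF1 fruit and 227 ± 128 in wild-type fruit (SD, n = 2 each), and the wild-type ratios rested on 15 and 20 C4H reads. On the log2 scale the ratio differed by -1.62 between the groups, by -1.01 without wild-type replicate 1 and by -2.23 without wild-type replicate 2. The summed 4CL RPKM itself averaged 483 ± 335 in CsMYBF1 fruit and 114 ± 5.65 in wild-type fruit (SD, n = 2 each), a spread set by the difference between the lines.

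The lines differed in how far they lay above wild type. C4H was 22.1-fold above the wild-type mean in line C2 and 5.01-fold above it in line D7, and the lines were 4.41-fold apart. Solyc03g117870.2 was 6.36-fold above the wild-type mean in line C2 and 2.15-fold above it in line D7, and the lines were 2.95-fold apart. Both lines were set against the same wild-type libraries. On the log2(RPKM + 1) scale, 0.687% of the genes tested differed as much as C4H in the same direction, and 1.16% as much as the 4CL gene. Counting either direction, the shares were 2.39% and 3.76%. Each line is a single library, so the difference between lines has no replicate.

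Slchs (Solyc09g091510.2), the gene the table marks with a name, had the opposite order of lines. The usual reading of chs is chalcone synthase, the enzyme that uses the product of 4CL. It stood at 209 RPKM in the D7 line and 53.4 RPKM in the C2 line, against 31.0 and 59.8 RPKM in the wild-type replicates. Line C2, the highest library for C4H and for Solyc03g117870.2, thus lay between the wild-type libraries for Slchs. The summed 4CL RPKM was 1.18 times the Slchs RPKM in the D7 line and 13.5 times in the C2 line, against 3.81 and 1.84 times in the wild-type replicates.

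**Figure D3:**
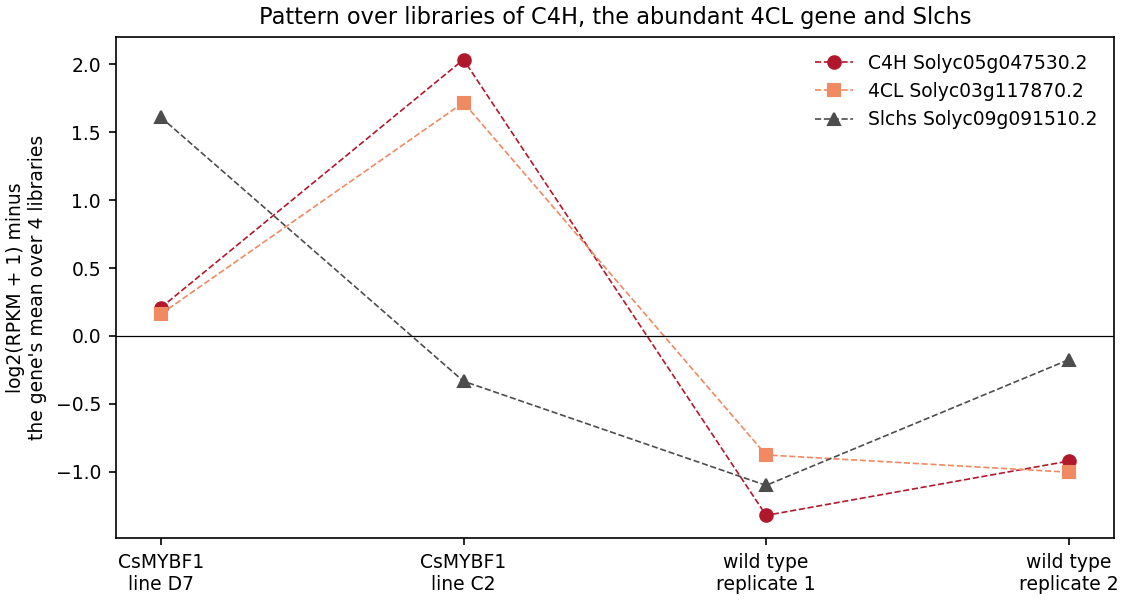
The log2(RPKM + 1), a scale that compresses low values, of C4H, 4CL Solyc03g117870.2 and Slchs in each library, minus the gene's own mean over the 4 libraries. C4H and the 4CL gene peak in line C2, at 2.04 and 1.72 above their means, whereas Slchs peaks in line D7, at 1.61 above its mean. The dashed lines join separate libraries and stand for no order.

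Likeness of pattern was measured as the Euclidean distance between log2(RPKM + 1) values centred on each gene's mean over the 4 libraries, among 16876 genes. The gene most like C4H was Solyc01g088400.2, at a distance of 0.267, with 231 RPKM in the D7 line and 676 RPKM in the C2 line, against 69.2 and 81.6 RPKM in the wild-type replicates. The gene most like Solyc03g117870.2 was Solyc06g068990.2, at a distance of 0.0477, with 1.22 and 5.61 RPKM in the lines, against 0.0494 and 0 RPKM in wild type, from 2 and 0 reads. C4H and Solyc03g117870.2 lay 0.554 apart, so that the 4CL gene was number 22 among the genes nearest to C4H and C4H was number 77 among those nearest to the 4CL gene. Slchs lay 2.86 from C4H, at number 11825. These distances depend on the pseudocount of 1, which compresses genes with values below 1 RPKM, such as C4H and Solyc06g068990.2 in wild type. With a pseudocount of 0.1, chosen after seeing the data, C4H and Solyc03g117870.2 lay 1.63 apart, with the 4CL gene at number 238 among the neighbours of C4H and C4H at number 6225 among those of the 4CL gene. Solyc06g068990.2 then lay 2.65 from the 4CL gene, at number 12398, and is thus not alike in fold. Solyc01g088400.2 lay 1.09 from C4H, at number 41. The table gives neither gene a name.

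The differences of C4H and Solyc03g117870.2 kept their direction under each alternative that tested them, but their call moved across the threshold. C4H passed it in 3 of 16 alternatives and Solyc03g117870.2 in 4 of 17. Both passed with RPKM scaled outside the 10 most abundant genes, where 27.7% of all genes were called higher and 1.26% lower. Both also passed with a crossed block of replicate numbers (24.1% and 4.84%). That block was added after seeing the data, follows no label and is included in both counts. C4H alone passed with a pseudocount of 0.1 (17.4% and 1.87%). The 4CL gene alone passed with voom on recovered reads (20.9% and 1.97%) and with a minimum mean of 5 RPKM (23.1% and 3.34%), where C4H was not tested. Line C2 carried much of both values. Leaving out line D7 gave a log2 fold change of 3.16 for C4H and 2.66 for Solyc03g117870.2, and leaving out line C2 gave 1.33 and 1.10.

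**Figure D4:**
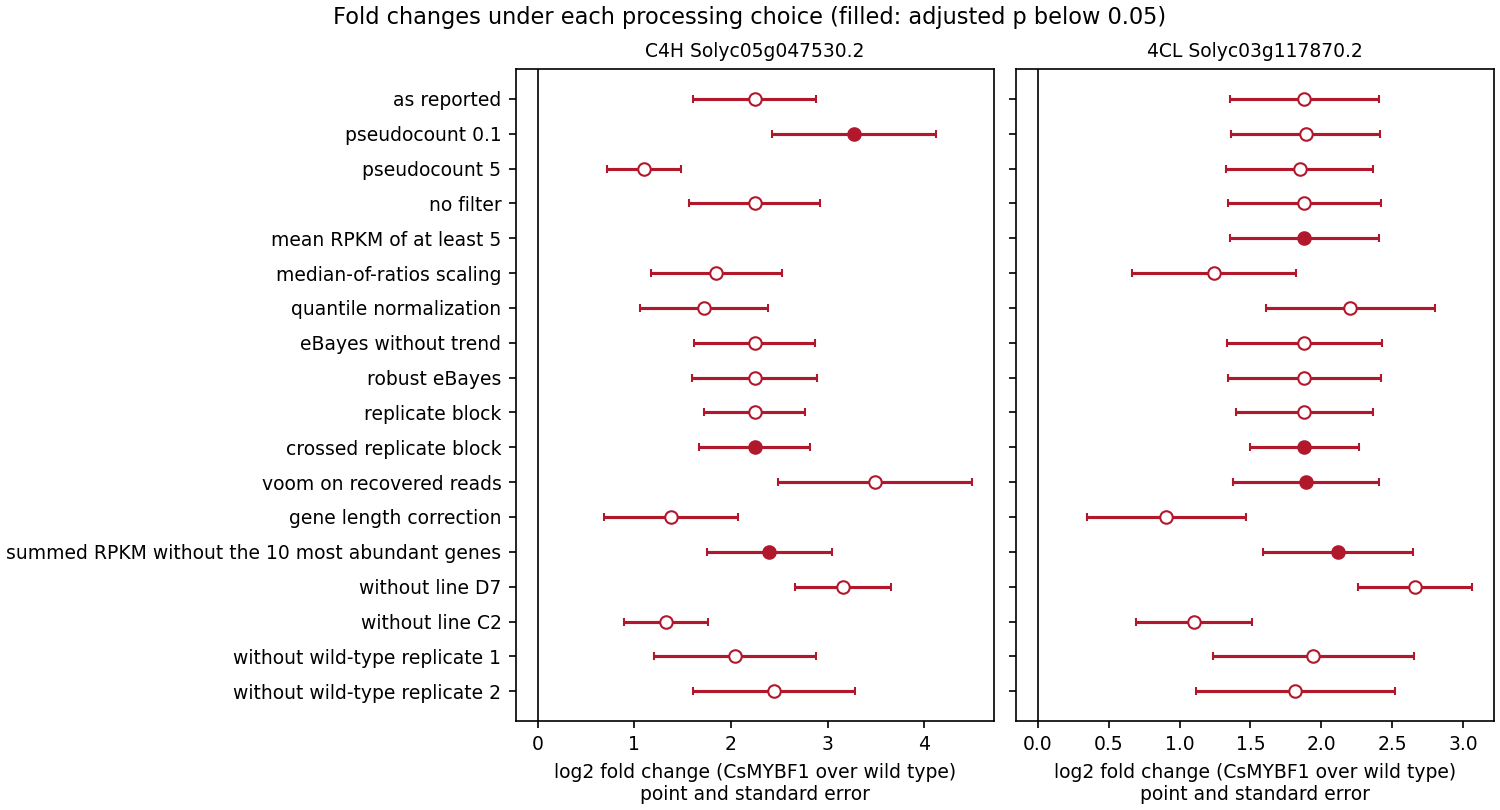
Log2 fold change (CsMYBF1 over wild type) of C4H and of 4CL Solyc03g117870.2 as reported and under each alternative setting, with standard errors, on axes with separate ranges. Filled points have an adjusted p below 0.05, and C4H has no point where its mean was below the stricter minimum. All points lie above 0, and the values without line C2 and with the gene length correction are among the lowest.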

How the data were processed

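Poly(A)-enriched RNA was sequenced in 4 fruit libraries, per the labels' protocols, which name no step that marks the strand. The authors deposited RPKM in 1 table with a column per library. The submitters' processing notes name HTSeq. The sources used here do not give the aligner, build, annotation or treatment of reads shared by similar genes, so reads of related 4CL genes or of antisense partners may not have been kept apart. Columns were matched to samples by line or replicate number, and groups were taken from the descriptions.

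Of the 34675 IDs, 0 were found in the RefSeq gene table (41476 genes), so no further pathway genes could be listed. The 4 genes, the lists and the tests were chosen with earlier results of these data known. Named beside them are Slchs and, for C4H and the most abundant 4CL gene, the 1 gene with the nearest pattern.

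Library totals and gene lengths (60 to 20000 bases, tolerance 0.001 reads) were solved from the steps between RPKM values for 24420 of 24422 genes above 0 (99.99%). Totals were 15227619 reads for line D7 and 12916160 for line C2, against 21403774 and 13101910 for the wild-type replicates. In a gene of 1 kilobase, 3 reads correspond to 0.197 and 0.232 RPKM in the lines and to 0.140 and 0.229 RPKM in wild type. For each gene the smallest length with whole reads was taken, so recovered reads and lengths are lower limits. Counting intervals are exact Poisson intervals and may therefore be too wide.

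Groups were compared with limma 3.58.1 (R 4.3.3; lmFit, eBayes with trend) after log2(RPKM + 1) transformation. The 16876 genes whose mean reached 1 RPKM were tested, with Benjamini-Hochberg adjustment over all of them and 0.05 as the threshold. This scale understates fold changes of low genes. Procedures were tested on simulated data. Alternatives were other pseudocounts and filters, scalings, variance models, a replicate block, voom on the recovered reads, a length correction by loess (span 0.3) and leaving out each library.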

Additional observations from a re-analysis of the deposited data

How the results depend on the processing

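For C4H Solyc05g047530 the log2 fold change passed the threshold with a pseudocount of 0.1 (3.28, adjusted p = 0.0477) and when libraries were scaled to their RPKM sum outside the 10 most abundant genes (2.40, adjusted p = 0.0391). For 4CL Solyc03g117870 it passed with a mean of at least 5 RPKM (1.88, adjusted p = 0.0482), with voom on the recovered reads (1.89, adjusted p = 0.0459) and with that same scaling (2.12, adjusted p = 0.0321), all by limma. Over all settings the limma adjusted p ranged from 0.0322 to 0.299 for C4H and from 0.0222 to 0.38 for the 4CL gene. The lowest value of each gene came from the crossed replicate block, added after seeing the data. Leaving out a library gave 1.33 to 3.16 for C4H and 1.10 to 2.66 for the 4CL gene, and the lone library was then assumed to vary like the other group. C4H was not tested at a minimum of 5 RPKM. The untested difference of Solyc12g042460, 0.74, was 2.00 with a pseudocount of 0.1, 0.22 with a pseudocount of 5, 2.78 from recovered reads scaled to library size and 0.070 with the length correction. That of Solyc06g068650 ranged from -0.55 to 0.61, by which library was left out.

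Replicate numbers mark no shared plant or batch in the labels, and deviations of same-numbered libraries correlated at -0.16 across genes. With the replicate block the log2 fold changes of C4H and Solyc03g117870 stayed at 2.24 and 1.88 (limma adjusted p = 0.0634 and 0.0673), and 24 genes were called higher and 0 lower. The crossed replicate block, added after seeing the data, gave 4071 higher and 816 lower, and C4H (2.24) and the 4CL gene (1.88) then passed.

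Genes called numbered 3179 higher and 352 lower. Without a filter they were 11 and 0, with the length correction 18 and 0, with quantile normalization 15 and 0, and with median-of-ratios scaling 498 and 926. Scaling outside the 10 most abundant genes left 212 lower. Leaving out a library gave 6 to 3365 higher and 0 to 451 lower. The cause was not tested. At an unadjusted p below 0.05 the numbers were 5750 and 1240 as reported. Few reads limit C4H in wild type and both lesser 4CL genes.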
